A study of Homo sapiens with 6 samples.

Results

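The genes described here encode zinc finger proteins whose symbols start with ZNF and a number and that lie on any chromosome other than 19. Their members were found by name and place alone: a row of either deposited list belonged to them when its gene field held a single such name and its chromosome was not chromosome 19. This gave 210 genes on 20 chromosomes, out of 11805 genes that either list named singly. They held 5114 of 366429 WT clusters (1.40%) and 2773 of 188027 F125A clusters (1.47%). A cluster is a place in an intron of a protein-coding gene that was covered by sequenced RNA. The RNA had stayed protected from nuclease in complexes of FLAG-tagged Rbfox1 with LASR, a large assembly of splicing proteins. All groups were HEK293 Flp-In cells, which derive from human embryonic kidney and take a transgene at 1 site, and all carried the Rbfox2 knockout of clone 7, so 1 clone stands for the knockout. There were 3 libraries with FLAG-Rbfox1(WT), 2 with FLAG-Rbfox1(F125A) and 1 control library from cells with no transgene, which was not analysed here. Each Rbfox1 group was deposited as 1 list, so no value has a replicate error and no difference between the proteins could be tested. The 95% intervals below reflect counting alone. The lists give no reads per cluster, which leaves the depth unknown.

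Rbfox proteins bind GCAUG in RNA through an RNA recognition motif and steer the splicing of nearby exons. F125A replaces a phenylalanine of that motif which contacts RNA, and it weakens binding to GCAUG. Most ZNF genes encode proteins with arrays of C2H2 zinc fingers, which bind DNA. A large part of the family also carries a KRAB domain, which recruits TRIM28 and with it enzymes that silence chromatin, above all at transposable elements. Others lack KRAB and act as cofactors in development and chromatin or bind RNA. Their fingers are often encoded in a single long last exon. The largest gathering of such genes in the human genome lies on chromosome 19, and the genes described here are the scattered or smaller gatherings elsewhere.

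The base sequence of a few of their clusters could be read, because these clusters lay wholly inside the 300-base RefSeq windows around annotated gene starts on GRCh38.p14 (250 bases before to 50 after). There were 15 such WT clusters in 12 genes and 17 such F125A clusters in 14 genes, a small fraction close to gene starts that does not stand for the other intronic clusters. The places below are shown because they lay across from the start of another gene annotated on the opposite strand, and 4 of the 5 genes show the same place in both lists. The clusters of ZNF445 and ZNF24 also lay close to the start of their own gene, within 1 kb. They are examples, and other clusters placed in the same way, such as those of ZNF341, are not printed. Sequences read 5′ to 3′ on the cluster's own strand, as in the RNA, with T for U, and runs of at least 3 G are in capitals.
ZNF516 WT, chr18:76491586-76491644, minus strand: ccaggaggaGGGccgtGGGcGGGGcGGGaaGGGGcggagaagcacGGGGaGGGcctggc
ZNF516 F125A, chr18:76491589-76491644, minus strand: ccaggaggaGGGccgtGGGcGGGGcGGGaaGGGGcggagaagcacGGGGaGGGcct
ZNF445 WT, chr3:44477534-44477585, minus strand: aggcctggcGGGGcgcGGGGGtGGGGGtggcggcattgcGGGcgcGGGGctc
ZNF445 F125A, chr3:44477538-44477592, minus strand: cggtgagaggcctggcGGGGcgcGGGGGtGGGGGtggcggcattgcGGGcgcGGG
ZNF24 WT, chr18:35343997-35344067, minus strand: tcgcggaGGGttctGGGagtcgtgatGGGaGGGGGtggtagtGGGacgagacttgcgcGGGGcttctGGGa
ZNF24 F125A, chr18:35343990-35344068, minus strand: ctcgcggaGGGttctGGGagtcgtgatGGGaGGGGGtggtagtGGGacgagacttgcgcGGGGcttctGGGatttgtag
ZNF236 WT, chr18:76857753-76857800, plus strand: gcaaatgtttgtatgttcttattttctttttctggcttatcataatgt
ZNF236 F125A, chr18:76857753-76857801, plus strand: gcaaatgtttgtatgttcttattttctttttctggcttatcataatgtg
ZNF385B WT, chr2:179655715-179655772, minus strand: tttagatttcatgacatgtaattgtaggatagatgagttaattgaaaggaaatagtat

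In ZNF236 the 2 clusters started at the same base and ended 1 base apart, and in ZNF516 they shared the end that is printed first. The ZNF516, ZNF445 and ZNF24 places were rich in G, with G at 59.3%, 61.5% and 52.1% of the bases of their WT clusters. The ZNF236 cluster was rich in T instead (54.2% T and 14.6% G), and the ZNF385B cluster was rich in A and T (37.9% and 36.2%). At the ZNF385B place only a WT cluster lay wholly inside the window. An F125A cluster reaching past the window's edge would not be seen here. Of the 15 WT clusters 13 held GGG on their own strand (86.7%, exact 95% interval 59.5 to 98.3%), and of the 17 F125A clusters 15 did (88.2%, 63.6 to 98.5%). Over the clusters of all genes in such windows the shares were 89.3% of 1016 with WT and 93.1% of 871 with F125A, and 99.5% of the 35116 windows held GGG on either strand. The windows are longer than the clusters and were read on both strands, so their share is not the one to set beside the clusters'; the share of the clusters of all genes is. GCATG, the DNA letters of the Rbfox motif, was in none of the 15 WT clusters (0%, interval 0 to 21.8%) and in none of the 17 F125A clusters (0%, 0 to 19.5%). Over all genes it was in 122 of 1016 WT clusters (interval 10.1 to 14.2%) and in 33 of 871 F125A clusters (3.79%, 2.62 to 5.28%), read on the cluster's own strand, and 29.5% of all windows held it on either strand. With so few clusters, the zinc finger genes' 0 is not shown to differ from the share over all genes.

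Most of the zinc finger genes had few clusters and a few had many. The median gene held 10 WT and 6 F125A clusters, 14 genes held a single cluster in the lists together, and 20 held at least 100. Both lists named 186 of the 210 genes, the WT list alone 19 and the F125A list alone 5. Of all 11805 genes, both lists named 10406, the WT list alone 1145 and the F125A list alone 254, which are similar shares. Genes in 1 list only had few clusters: ZNF684 had 5 WT clusters, ZNF510 had 4, and ZNF157, ZNF502 and ZNF770 had 3 each, while the highest with F125A alone was ZNF641 with 2. RefSeq lists 267 protein-coding genes of this name off chromosome 19, and 57 of them had no cluster under their own name here. Those 57 were shorter, with a median of 15.1 kb against 27.0 kb for the 210. The 12 genes with the most clusters held 36.3% of the group's WT clusters and 35.6% with F125A.

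ZNF644 on chromosome 1 (90915304 to 91022035), a partner of the histone methyltransferases G9a and GLP, had the most, with 273 WT and 152 F125A clusters. ZNF638 on chromosome 2, a nuclear protein that binds RNA and DNA, had 188 and 108. ZNF407 on chromosome 18 had 224 and 69, and ZNF609 on chromosome 15, known also as the source of a circular RNA, had 197 and 96. ZNF148, which binds GC-rich promoters, had 164 and 82, and ZNF292 had 140 and 93. The order of genes by WT clusters and by F125A clusters therefore differed: ZNF407 was second by WT clusters but held fewer F125A clusters than ZNF638, ZNF609, ZNF148 or ZNF292. ZNF711 on the X chromosome, with 100 and 131, was the only one of the 12 with more F125A than WT clusters. ZNF608, a paralogue of ZNF609, had 135 and 53, ZNF236 112 and 68, ZNF678 115 and 51, ZNF516 104 and 43, and ZNF618 104 and 40.

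**Figure D1:**
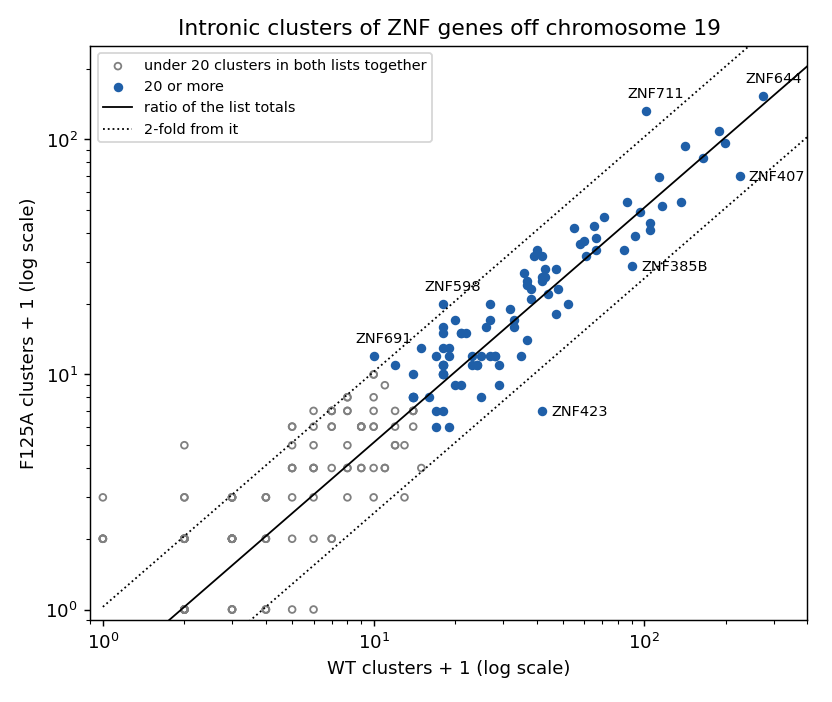
WT clusters plus 1 (x axis, log scale) against F125A clusters plus 1 (y axis, log scale) for the 210 zinc finger genes off chromosome 19, 1 point a gene. Filled points are the 93 genes whose WT and F125A clusters sum to 20 or more, the solid line is the ratio of the list totals (1.95 WT clusters per F125A cluster) and the dotted lines lie 2-fold from it; ZNF711 (100 and 131) lies above the upper dotted line and ZNF423 (41 and 6) below the lower one.

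Set against the list totals, the group as a whole stood close to other genes. There were 1.84 WT clusters for each F125A cluster, against 1.95 over the whole lists. A ratio was computed for genes that had 20 clusters or more when the lists were summed. It is log2 of WT over F125A clusters after adding 1 to each, less 0.96, the same quantity for the list totals, so 0 stands for 1.95 WT clusters per F125A cluster. Of the 210 genes 93 had enough clusters, 57 with a ratio below 0 (61.3%) and 36 above. Over all genes tested 53.5% lay below 0. The median of the 93 was -0.16 (interval of the median -0.25 to -0.01) with quartiles of -0.37 and 0.19, and the median of all 5626 genes tested was -0.04 (-0.05 to -0.02). The 65 zinc finger genes on chromosome 19 with enough clusters had a median of -0.38 (-0.43 to -0.23). Set against the median of genes of like length, in 20 bins, the medians were 0.02 (-0.07 to 0.17) off chromosome 19 and -0.08 (-0.14 to 0.06) on it, which places both groups near other genes of their length. By that measure 44 of the 93 lay below 0 and 49 above.

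Few of the 93 genes lay 2-fold or more from the list totals. Toward WT there was 1, ZNF423, where 2.51% of all genes tested lay so far. Toward F125A there were 3, ZNF711, ZNF691 and ZNF598, where 1.99% of all genes tested did. Counts this close to the background are no result about the group, and the other 89 lay in between. Relative to genes of similar length, ZNF423 (1.31) and ZNF711 (-1.02) still lay 2-fold or more from 0, where 2.04% and 0.447% of the 5596 genes with a length did. ZNF691 moved to -0.50 and ZNF598 to -0.39.

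ZNF711, an X-linked transcription factor gene mutated in intellectual disability and a paralogue of ZFX, had the lowest ratio, -1.35 (exact binomial interval -1.74 to -0.97). It spans 29.4 kb (chromosome X, 85243991 to 85273357) and held 7.87 clusters per kb in the lists together, the densest of the 93 genes; 5 of all tested genes, itself included, were as dense. Its WT clusters covered 7399 nt, 25.2% of the gene, and its F125A clusters 10643 nt, 1.44 times as much. Nearly every place found with WT was found with F125A as well: 96 of its 100 WT clusters (96.0%) overlapped an F125A cluster. In the other direction 97 of 131 F125A clusters (74.0%, interval 65.7 to 81.3%) overlapped a WT cluster, and 34 did not. These 34 had a median length of 79 nt, lay a median of 76.5 nt from the nearest WT cluster, and only 1 was over 500 nt from one. With 100 WT clusters in 29.4 kb, most places in the gene lie close to one, so these distances show no pattern of their own. F125A clusters covered 36.2% of the gene, which also favours overlap. Between the WT cluster centres at 20.88 and 24.00 kb from the gene start, WT had centres only at 22.35 and 22.40 kb. F125A centres there ran from 21.28 to 23.88 kb. The first 10% of ZNF711 held 10 WT and 17 F125A clusters and the last 10% held 0 in either list, while counts on either side of its middle were 56 and 44 with WT and 70 and 61 with F125A. With clusters closer than 50 nt merged, its ratio was -0.99, just short of 2-fold.

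The other genes with more F125A than WT clusters were short and had few. ZNF598, an E3 ubiquitin ligase that acts on collided ribosomes, spans 12.2 kb on chromosome 16 and had 17 WT and 19 F125A clusters (-1.11, interval -2.16 to -0.10). ZNF691 spans 5.87 kb on chromosome 1 and had 9 and 11 (-1.23, -2.70 to 0.16), an interval that includes 0. The ratio of ZNF598 was -0.83 with close clusters merged, and ZNF691 then had too few clusters. The next lowest ratios were those of ZNF74 (11 and 10, -0.84), ZNF76 (17 and 15, -0.79) and ZNF276 (14 and 12, -0.76), each with an interval that includes 0. Among the 5626 genes tested, 115 had more F125A than WT clusters.

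ZNF423, a cofactor of EBF transcription factors with a role in the making of neurons and fat cells, stood at the other end. It had 41 WT clusters and 6 F125A clusters, a ratio of 1.62 (interval 0.57 to 3.34), spread thinly over 372 kb of chromosome 16 (49487524 to 49859279) at 0.13 per kb. Of its WT clusters 7 overlapped an F125A cluster (17.1%), the lowest share among the 93 genes, and 5 of its 6 F125A clusters overlapped a WT cluster. Its WT clusters lay along the whole gene, 24 in the first and 17 in the second of 2 equal parts, and its F125A clusters 4 and 2. ZNF521, its paralogue on chromosome 18, had 83 and 33 (0.34, interval -0.23 to 1.00). The next highest ratios were those of ZNF33B (28 and 8, 0.73), ZNF407 (224 and 69, 0.72), ZNF273 (18 and 5, 0.70), ZNF81 (24 and 7, 0.68) and ZNF385B (89 and 28, 0.67). Of these 5 only ZNF407 (0.34 to 1.15) and ZNF385B (0.08 to 1.37) had an interval above 0, and both are very long genes, of 468 and 420 kb. Relative to genes of similar length they lay at 0.30 and 0.25. ZNF33B has a close relative in ZNF33A on the same chromosome, which had 57 and 35 (-0.27), and how reads that could come from either were placed is not given in the sources used here.

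**Figure D2:**
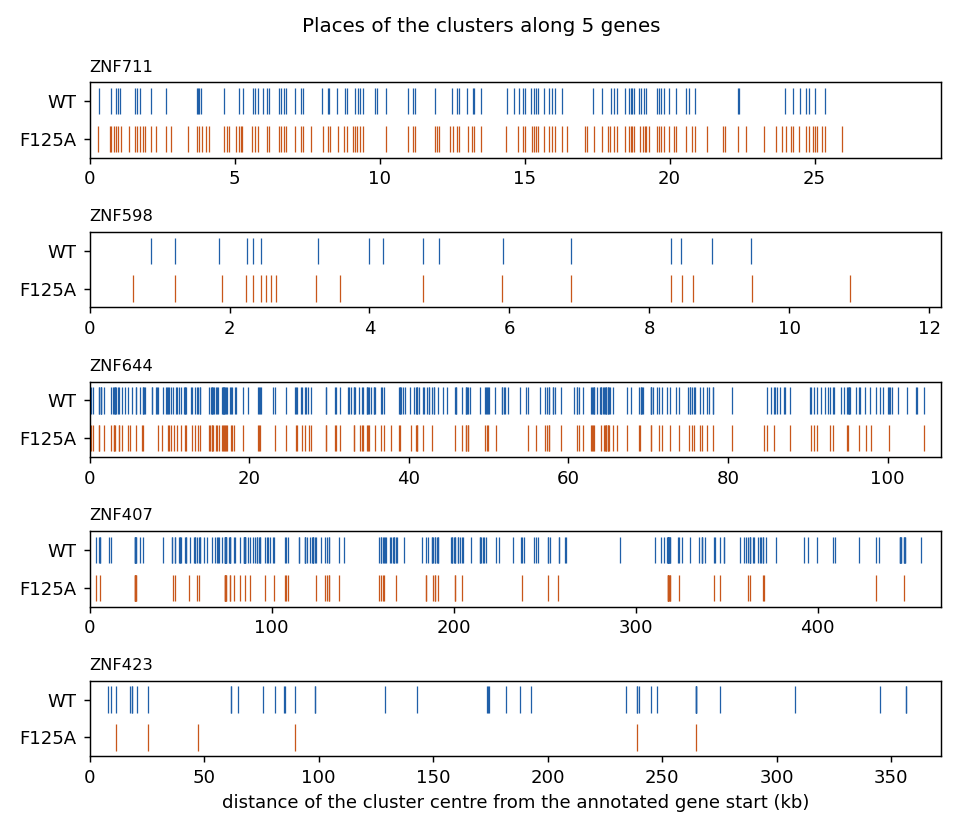
Places of the clusters along ZNF711, ZNF598, ZNF644, ZNF407 and ZNF423, with the distance of each cluster's centre from the annotated gene start in kb on the x axis; each tick is 1 cluster, WT above and F125A below, and each panel spans its gene. ZNF711 has more F125A ticks than WT ticks (131 against 100), whereas ZNF423 has 6 F125A ticks against 41 spread over 372 kb.

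The ratio was higher in longer genes, among these genes as over all genes. Among the 34 genes that were at most 37.2 kb long, the median was -0.37 (interval -0.55 to -0.16) and 28 lay below 0. Among the 28 genes of 37.2 to 71.2 kb it was -0.14 (-0.25 to 0.10), among the 18 of 71.2 to 143 kb -0.01 (-0.27 to 0.37), and among the 13 longer ones 0.21 (-0.24 to 0.67). Over all genes the same 4 length classes had medians of -0.44, -0.12, 0.04 and 0.25. Spearman's rho between ratio and gene length was 0.53 across the 93 genes and 0.57 across the 5596 genes with a length. These are descriptions across genes, which are not replicates and share the same 2 lists.

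**Figure D3:**
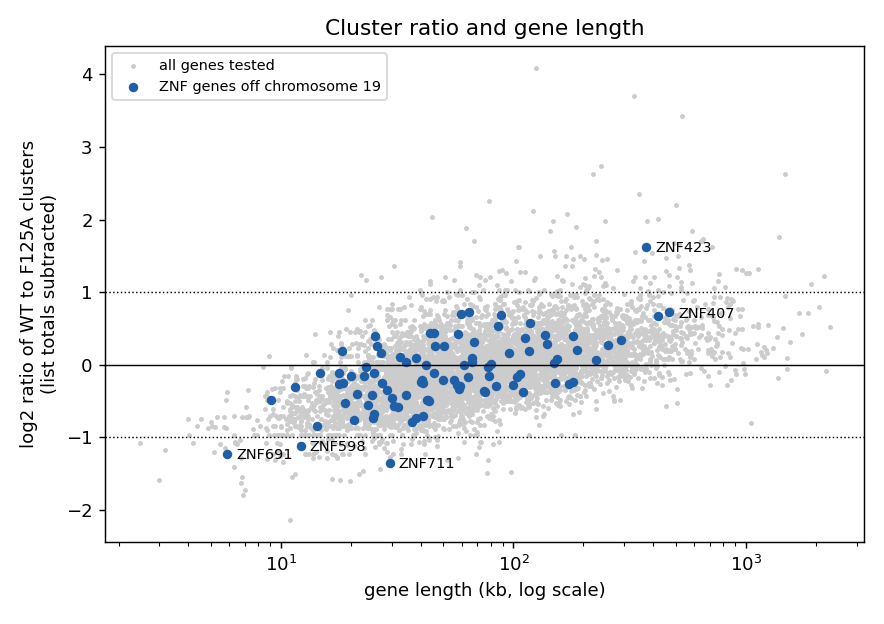
Log2 ratio of WT to F125A clusters, list totals subtracted (y axis), against gene length in kb (x axis, log scale), for the 93 zinc finger genes off chromosome 19 with at least 20 clusters (large points) and all genes tested (small points). Dotted lines mark 2-fold; the zinc finger genes lie within the cloud of all genes, with ZNF423 (1.62) above and ZNF711 (-1.35), ZNF691 (-1.23) and ZNF598 (-1.11) below the lines.

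Most places covered with F125A in these genes had a WT cluster too. An overlap of 1 nt or more on the strand of the gene was required, and 2404 of the 2773 F125A clusters met it (86.7%, exact interval 85.4 to 87.9%), against 85.5% (85.4 to 85.7%) over the whole list. Of the 5114 WT clusters 2484 overlapped an F125A cluster (48.6%, 47.2 to 49.95%), against 45.2% (45.0 to 45.3%) over the whole list and 54.3% (52.4 to 56.3%) in the zinc finger genes on chromosome 19. Without ZNF711 the WT share was 47.6%. Exact ends recurred as well: 34.8% of the F125A clusters had a 5′ end within 2 nt of that of a WT cluster and 36.1% a 3′ end, against 33.7% and 36.3% over the whole list. Only 65 clusters had both ends the same in the lists.

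Gene by gene, the shares ranged widely. Among the 93 genes the WT share had a median of 50%, against 44.9% over all genes tested. It ran from 17.1% in ZNF423 to 96.0% in ZNF711, and 2 genes exceeded 80%. The second was ZNF605 on chromosome 12, where 33 of 39 WT clusters (84.6%) and 32 of 33 F125A clusters overlapped. In ZNF644 152 of 273 WT clusters (55.7%) and 144 of 152 F125A clusters (94.7%) overlapped, and in ZNF407 68 of 224 (30.4%) and 65 of 69 (94.2%). In ZNF407, then, nearly all F125A clusters lay at WT places. Its low WT share adds little to the counts, since 69 F125A clusters can overlap few more than 69 WT clusters. The same holds for ZNF423, with 6 F125A clusters against 41 WT clusters. The F125A share had a median of 88.9% over the 93 genes, against 85.7% over all genes tested. In 15 of the 93 genes each F125A cluster overlapped a WT cluster. Those genes had few F125A clusters, from 5 in ZNF273 to 22 in ZNF138, and the count of such genes over all genes was not made. The lowest F125A shares were in ZNF106 (42.9% of 7 clusters) and ZNF76 (46.7% of 15, interval 21.3 to 73.4%).

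**Figure D4:**
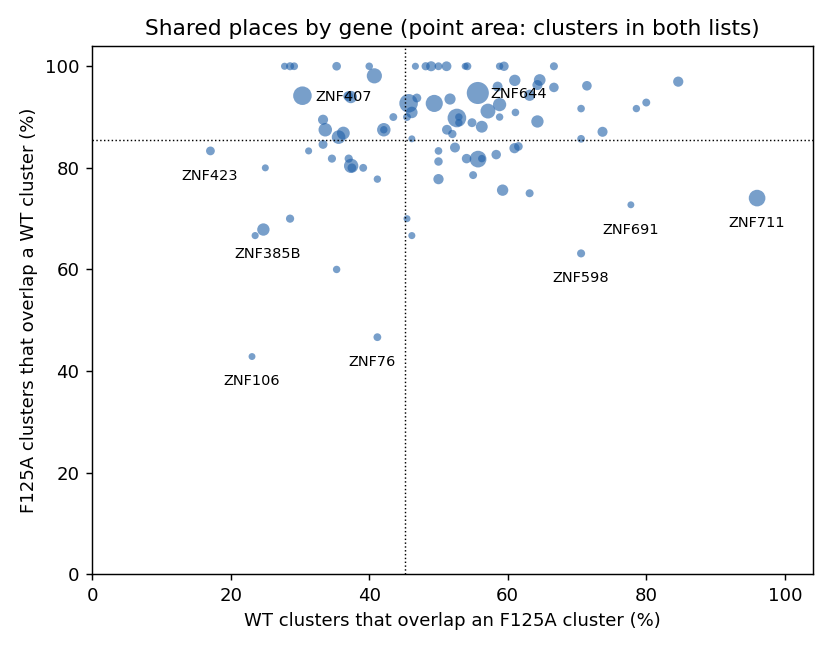
Share of WT clusters that overlap an F125A cluster (x axis, percent) against the share of F125A clusters that overlap a WT cluster (y axis, percent) for the 93 zinc finger genes off chromosome 19 with at least 20 clusters; point area grows with the clusters in both lists, and dotted lines mark the shares over the whole lists (45.2% and 85.5%). ZNF711 stands at the right edge (96.0% and 74.0%) and ZNF423 at the left (17.1% and 83.3%).

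Clusters of these genes were about as long as those over all genes and lay closer together, as did those of the zinc finger genes on chromosome 19. Their median length was 60 nt with WT (quartiles 48 and 77 nt) and 65 nt with F125A (51 and 84 nt), against 60 and 64 nt over the whole lists. WT clusters without an F125A partner were shorter than those with one (57 against 64 nt), and F125A clusters without a WT partner longer (69 against 65 nt). The whole lists showed the same (57 against 63 nt with WT and 68 against 63 nt with F125A), so it is no trait of these genes. The median gap between neighbouring clusters of a gene was 430 nt with WT and 628.5 nt with F125A, against 637 and 1022 nt over all genes. Of these gaps 18.8% (17.7 to 19.9%) were under 50 nt with WT and 16.4% (15.0 to 17.9%) with F125A, against 14.4% and 12.1% over all genes. In the zinc finger genes on chromosome 19 the clusters lay closer still, with median gaps of 396 and 575 nt and 21.2% and 19.5% of gaps under 50 nt. Spacing was not compared with genes of similar length. Without ZNF711 the shares off chromosome 19 were 18.3% and 14.4%. The longest runs of clusters less than 50 nt apart were 8 WT clusters in ZNF711 and in ZNF605, where F125A had a run of 10. Over the 93 genes the median was 1.09 clusters per kb (quartiles 0.66 and 1.64) in both lists together, against 0.89 (0.52 and 1.43) over all genes tested. Only genes with 20 clusters or more enter these medians, and the 93 were shorter (median 45.7 kb against 71.2 kb). Without that limit the median was 0.56 over the 210 genes and 0.53 over all 11805 genes. After ZNF711, the densest of the 93 were ZNF644 (3.98), ZNF692 (3.75) and ZNF691 (3.41).

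A smaller share of the clusters lay near the gene end than over all genes. The last 10% of the gene's length held 2.44% of the 5114 WT clusters (interval 2.04 to 2.91%) and 48 of the 2773 F125A clusters (1.73%, 1.28 to 2.29%), against 4.57% of each over all genes. Zinc finger genes on chromosome 19 had 1.78% and 2.01% there. Genes under 30 kb showed the lowest shares: 5 of 1056 WT clusters (0.47%) and 3 of 742 F125A clusters (0.40%), against 2.87% and 3.33% over all genes of that length. In genes over 100 kb the shares were 4.13% and 3.04%, against 4.94% and 4.83%. The lists cover introns only, and the share of each gene's end that is exon was not measured here. At the other end, the first 10% held 14.9% (13.9 to 15.9%) of WT and 18.2% (16.8 to 19.7%) of F125A clusters, against 13.9% and 15.7% over all genes. In the zinc finger genes on chromosome 19 the shares were lower than over all genes, at 12.1% and 13.9%. Within 1 kb of the gene start lay 164 WT clusters (3.21%, 2.74 to 3.73%) and 138 F125A clusters (4.98%, 4.20 to 5.85%), from 85 and 73 genes. Over all genes the shares were 1.95% and 3.36%, and in the zinc finger genes on chromosome 19 they were 6.01% and 8.41%. By gene length the order was mixed. Under 30 kb the shares were 9.38% with WT and 11.1% with F125A, against 9.39% and 12.2% over all genes of that length. From 30 to 100 kb they were 2.08% and 3.70%, against 2.24% and 3.46%. Over 100 kb they were 1.25% and 1.93%, against 0.58% and 1.09%.

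**Figure D5:**
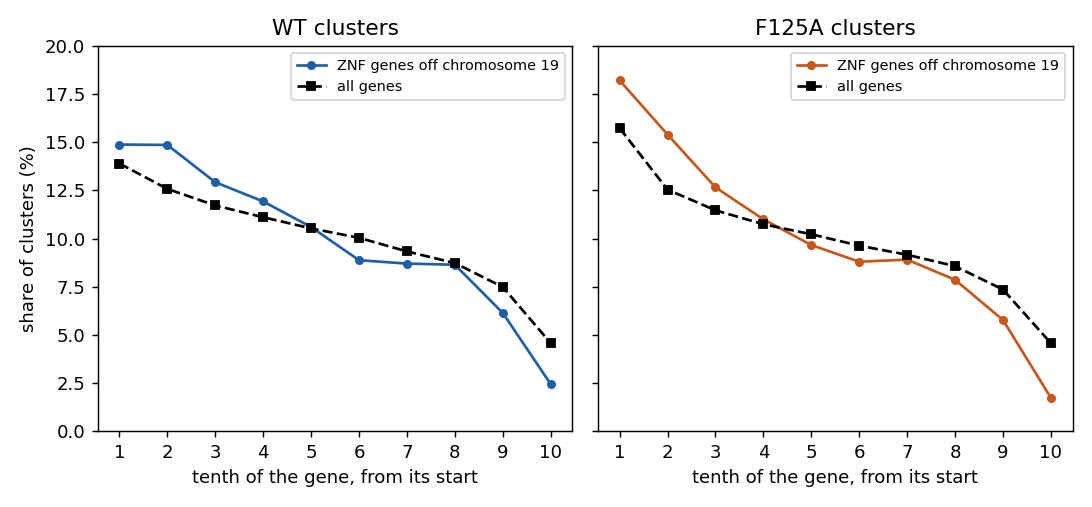
Share of clusters (y axis, percent) in each 10% step of the gene from its annotated start (x axis), for the zinc finger genes off chromosome 19 (solid lines) and all genes (dashed lines), with WT clusters on the left and F125A clusters on the right. The zinc finger genes start higher (14.9% and 18.2% in the first 10%) and end lower (2.44% and 1.73% in the last 10%, against 4.57% of each over all genes).

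The listed RNA and translation genes with enough clusters lay below 0 and the listed cofactors with enough mostly above. Relative to genes of similar length the cofactors split evenly. Below 0 lay 61.3% of the 93 genes and 53.5% of all genes tested. Both lists were written with earlier results of these data known, so the counts describe these lists only. The list of RNA and translation genes had 9 of 10 genes with a cluster, and all 6 with enough clusters lay below 0, with a median of -0.28 (interval -1.11 to -0.16), or -0.20 (-0.39 to -0.02) relative to genes of similar length, where all 6 were still below 0. ZNF638 lay at -0.17. ZNF207, which binds microtubules and a spindle checkpoint protein, had 54 WT and 41 F125A clusters (-0.57, interval -1.18 to 0.06). ZNF326, a subunit of a complex that links transcription with splicing, had 46 and 27 (-0.22), and ZNF346, which binds double-stranded RNA, 36 and 23 (-0.34). Of these 6 genes, the interval lay below 0 only for ZNF598. Listed genes with too few clusters went both ways: ZNF622 (10 and 3, 0.50) and ZNF804A (6 and 1, 0.84) above 0, ZNF385A (3 and 2, -0.55) below.

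Of 21 listed cofactors of development and chromatin, 19 held clusters. Among the 14 with enough of them, 10 had a ratio above 0 and 4 below. Their median was 0.19 (-0.24 to 0.42), and -0.01 (-0.37 to 0.30) relative to genes of similar length, with 7 above 0 and 7 below. The median length of the 14 was 152 kb. ZNF644 lay at -0.12 (-0.41 to 0.18), ZNF609 at 0.07 (-0.28 to 0.44) and ZNF148 at 0.03 (-0.35 to 0.44), all close to the list totals, while ZNF292 lay at -0.38 (-0.76 to 0.02). ZNF608 lay at 0.37, ZNF618, a partner of UHRF2, at 0.39 and ZNF516 at 0.29, each with an interval that includes 0. ZNF609 and its paralogue ZNF608 had overlapping intervals. The remaining 182 genes, among which those with a KRAB domain were not told apart here, included 73 tested, 47 below and 26 above 0, with a median of -0.17 (-0.27 to -0.01), or 0.08 (-0.05 to 0.23) relative to genes of similar length.

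Genes with another ZNF gene within 100 kb had ratios close to those standing alone against the list totals, but a higher median relative to genes of similar length. There were 95 of the former, and their 34 tested genes had a median of -0.13 (-0.27 to 0.10), while the 59 tested genes among the 115 that stood alone had -0.17 (-0.25 to 0.04). The tested genes with a neighbour were shorter, with a median of 36.3 kb against 64.0 kb. Relative to genes of similar length the medians were 0.22 (0.02 to 0.32) and -0.05 (-0.14 to 0.07), with 24 of 34 and 25 of 59 genes above 0. None of the genes with a neighbour and 4 of those standing alone lay 2-fold or more from the list totals. Over all genes tested 2.51% lay so far toward WT and 1.99% toward F125A, so with these few genes the counts are no result about either set. The longest row of neighbours was at the end of chromosome 12 (132918306 to 133214832), where ZNF605, ZNF26, ZNF84, ZNF140, ZNF891, ZNF10 and ZNF268 held 130 WT and 82 F125A clusters together. Within it ZNF605 (39 and 33, -0.73) and ZNF26 (17 and 14, -0.70) lay below 0 and their neighbours ZNF84 (27 and 11, 0.26) and ZNF140 (23 and 10, 0.16) above, and all 4 intervals overlap. On chromosome 7 (149069641 to 149284994) 6 neighbours held 84 and 53, led by ZNF282 with 41 and 31 (-0.57). Nearer the centromere of the same chromosome (64666133 to 64991036), ZNF107, ZNF138, ZNF273 and ZNF117 held 105 and 48. At the tip of chromosome 4, ZNF721 had 85 and 53 (-0.29) and ZNF718 60 and 31 (-0.03).

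Between chromosomes, WT clusters per F125A cluster in these genes ranged from 1.28 on the X chromosome to 2.38 on chromosome 18. The value for the X chromosome rests on ZNF711: without it the other 11 genes there held 2.10 WT clusters per F125A cluster, against 1.78 over all genes on that chromosome. Chromosome 18 had 8 of the genes, ZNF407 among them, and 567 WT and 238 F125A clusters, and all genes there together had 2.26. Chromosome 7 held the most genes, 28, with 513 and 292 clusters (1.76, against 2.00 over all genes there). Chromosome 16 held 22 genes but only 165 and 88 clusters, and 4 of its genes were tested.

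The partners of KRAB zinc finger proteins, a list of 23 genes that all had clusters, were recovered too. Among the 19 with enough clusters, 3 had a ratio above 0 and 16 below it, and the median was -0.20 (-0.38 to -0.03), which is -0.16 against genes of like length, and none lay 2-fold or more from the list totals. ATRX, a chromatin remodeller, had 398 WT and 211 F125A clusters (-0.05), EHMT1, the methyltransferase GLP, 244 and 143 (-0.20), TRIM33 143 and 77 (-0.08) while PPHLN1, a subunit of the HUSH silencing complex, had 126 and 74 (-0.20) and ATF7IP, a partner of SETDB1, as many in all (136 and 64, 0.11). TRIM28 itself had 11 and 8. Of 63 genes of other zinc finger families off chromosome 19 (names in ZBTB, ZSCAN, ZKSCAN or ZFP), 21 had enough clusters, 10 of them above 0 and 11 below, and their median was -0.13 (-0.52 to 0.40). Relative to genes of similar length it was 0.21 (-0.22 to 0.47), with 13 above and 8 below. ZBTB16 had 66 and 25 (0.40), ZBTB20 69 and 18 (0.92, interval 0.21 to 1.81), ZBTB44 57 and 23 (0.31) and ZBTB7C 26 and 8 (0.62). On chromosome 19 the zinc finger genes with the most clusters were ZNF536 (191 and 112, -0.20), ZNF875 (78 and 62, -0.64), ZNF146 (59 and 52, -0.78) and ZNF566 (60 and 42, -0.46).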

How the data were processed

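Nuclease-protected RNA of Rbfox1/LASR complexes was sequenced from 3 WT, 2 F125A and 1 control library, grouped by the labels. Per the submitters' processing notes, the authors used cutadapt and STAR with hg38. Versions, cluster caller, threshold, use of the control, gene annotation and the merging of libraries are not given in the sources used here. Each of the 2 deposited lists, per the file headers, holds a place, a strand, a gene name and a region class for every cluster, with no count or score. Start positions were taken to count from 0 and 1 was added for print.

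Repeated rows (7029 WT and 4851 F125A, of which 27 and 12 in these genes) were dropped. All 210 names matched RefSeq's GRCh38.p14 table by symbol, and gene bounds come from that table. RefSeq start windows gave the sequences. Shares have exact (Clopper-Pearson) 95% intervals, medians order-statistic intervals, and gene ratios an interval from the WT share of the gene's clusters (exact binomial, nothing added); all treat clusters as independent. The 2-fold calls were tested on simulated counts with clusters drawn independently, and the overlap search against a direct comparison. The intervals and the ratios relative to genes of similar length were not tested in this way.

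The genes and lists were chosen with earlier results of these data known. Genes were named by rule: the 12 with most clusters, the 6 highest and lowest ratios, those 2-fold or more away, the 3 with most clusters in 1 list only (ties added), the 4 densest, and up to 4 per list. Genes beyond it (ZNF521, ZNF33A, ZNF605, ZNF26, ZNF84, ZNF140, ZNF106, ZNF622, ZNF804A, ZNF385A, TRIM28, those shown by sequence and those of the neighbour rows and chromosome paragraphs) were chosen after their values were seen. A planned list of KRAB genes needed protein sequences, not used here. Python 3.11.15, pandas 2.3.3 and scipy 1.17.1 were used.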

Additional observations from a re-analysis of the deposited data

Results flagged for a closer look

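Some rows are not used in the values above: 54 clusters in each list carried several gene names of which at least 1 was a ZNF gene off chromosome 19. All 54 had the same place, strand and names in the WT and the F125A list. Of these 54, 26 were named for ZNF37A with PLD5P1 and 15 for ZNF695 with another name. The cause of the identity was not tested. Over the whole lists, 363377 of 366429 WT and 184975 of 188027 F125A clusters carried a single name. That leaves equally many with several names in each list, so the equal counts are not particular to ZNF genes. The lists share a stretch of 5433 identical rows, and none of the clusters counted for the 210 genes (0) lay in it. It was found by starting from a row with several names, and whether it holds the 54 was not counted.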

How the results depend on the processing

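No paired analysis was possible because each group was deposited as 1 list without libraries, and for the same reason none could be left out. Keeping repeated rows, dropping the identical stretch, merging, and (chosen after seeing the data) counting rows with several names left the cluster counts within 1.5 times. Requiring 50% of a cluster to be covered put the F125A share at 83.5% and the WT share at 46.3%. The median ratio was -0.30 with 5 added to each count and 0.02 (0.0176) relative to genes of similar length, where 1 gene lay 2-fold or more toward F125A. With at least 10 clusters, 2 genes lay 2-fold or more toward WT (ZNF385C, with 12 and 2 clusters, was added) and 4 toward F125A. With clusters closer than 50 nt merged, 0 genes lay 2-fold or more toward F125A, against 3. Merging put the median lengths at 66 nt (WT) and 69 nt (F125A). Among 23 named genes, ZNF407 alone left its counting interval, at 0.30 relative to genes of similar length. Ratios of genes with few clusters are imprecise, and depth is unknown.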
